A study of Mus musculus with 6 samples.

Results

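The genes described are 35 endothelial and angiogenesis genes, chosen by name, as they were measured in cochlear epithelium of wild type mice after γ-secretase was blocked with DAPT. Of the 35, 34 were measured by a probe cluster that carries the name of 1 gene, out of 20259 such genes on the array, and *Flt4* was not analysed here because its cluster carries several names. Cochlear explants, made of the duct with the mesenchyme attached to it and its innervating neurons, were taken at E15.5. They were cultured with 3.33 µM DAPT or with the vehicle DMSO at 0.013%, in medium with EGF, FGF and N2. The epithelium was then freed with collagenase and dispase. In each of 3 experiments 1 control and 1 DAPT sample was hybridized to an Affymetrix Mouse Exon 1.0 ST array, which gave 3 control and 3 DAPT arrays, and the sample labels give culture times of 23, 19 and 24 hours for experiments 1, 2 and 3, from which other descriptions of the study differ by some hours. Explants of a condition were pooled before the epithelium was isolated and other tissue was dissected away by hand, so that the purity of each pool can differ. DAPT was given to the whole explant, and how far it blocked γ-secretase in each cell type was not measured. Values are log2 signals, so that a difference of 1 is a doubling, and differences are DAPT minus control. Array medians, taken over all clusters with or without a gene name, lay between 6.30 and 6.36. The median of the mean signals of the 20259 genes was higher, at 7.78, so a gene above the array medians can still be dim among genes. No detection call comes with the values, so absence of a transcript cannot be read from a low signal. The number of arrays limits the precision.

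Endothelial cells line blood vessels and are held together by junction proteins such as VE-cadherin. New vessels sprout when vascular endothelial growth factor (VEGF) acts on the receptor VEGFR2 and a leading tip cell emerges, which presents the Notch ligand DLL4 to its neighbours and holds them in the stalk. Apelin, endocan (ESM1) and angiopoietin-2 are made more in tip cells than in stalk cells, and in endothelial cells Notch activity is known to lower VEGFR2 and to raise the decoy receptor VEGFR1. The cochlear duct itself is an epithelium, and vessels lie in the mesenchyme around it. The samples are bulk tissue, in which fewer endothelial cells and less RNA per cell cannot be told apart, and in which the cell type that made a transcript was not measured.

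The signal of endothelial markers differed more between experiments than between treatments. The mean log2 signal of 19 pan-endothelial markers was 7.64, 8.21 and 8.41 in controls 1, 2 and 3, and 7.83, 8.16 and 8.37 in the DAPT samples of the same experiments. Of the 19 markers, 18 were lowest in control 1 among the 3 controls and 15 were highest in control 3, and control 3 exceeded control 1 by a median of 0.79, with a range from 0.07 to 1.75. Over all genes that median was −0.01. Marker lists of other cell types also differed between the controls, though not all in this order. For 14 genes of pericytes and smooth muscle the mean signal was highest in control 2, at 7.73, 8.07 and 8.01 in controls 1, 2 and 3. The mean signal of 10 mesenchymal genes was 8.76, 9.25 and 9.65 in controls 1, 2 and 3, that of 8 neuronal genes was 7.99, 8.96 and 8.99, and that of 8 epithelial genes ran the other way, with 10.40, 10.22 and 9.98. Their part in the differences between treatments was not tested. DAPT was compared with control within experiments.

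**Figure D1:**
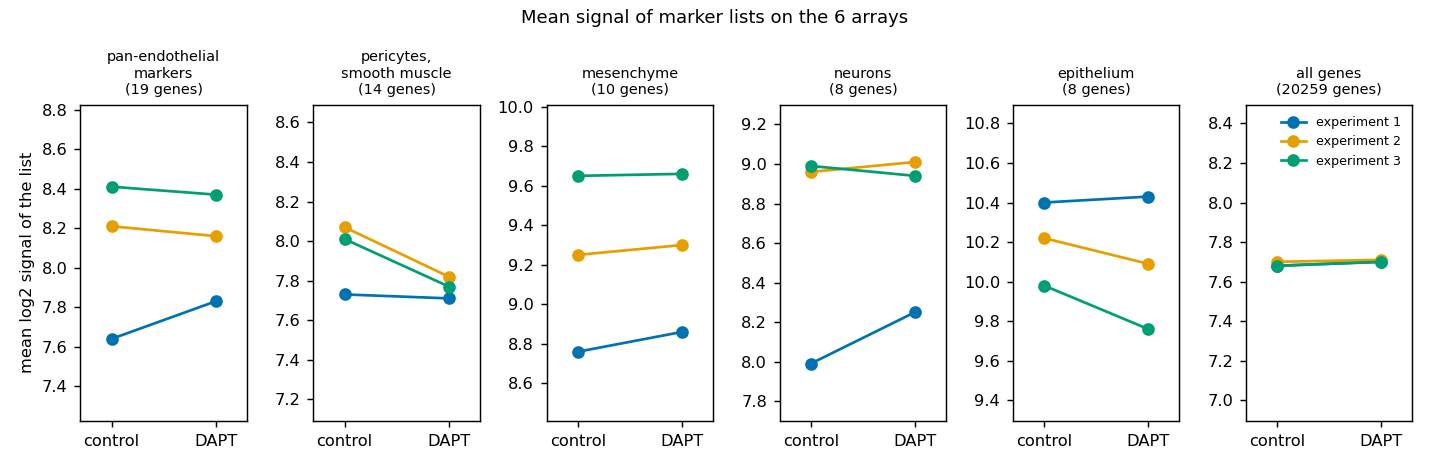
Mean log2 signal (vertical axis, the same span in each panel) of 5 marker lists and of all genes in control and DAPT samples. Each line joins the 2 arrays of 1 experiment. The pan-endothelial mean lay at 7.64 in control 1 and 8.41 in control 3, while within experiments 1, 2 and 3 it moved by 0.18, −0.05 and −0.04 with DAPT.

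Pan-endothelial markers as a group stayed near 0 in response to DAPT, with a median log2 difference of 0.03 where all genes had 0.02. Of the 19, 16 differed by less than 0.2, and for all 19 the difference was smaller than the range of the 3 controls. That range holds the differences between experiments, which the comparison within experiments leaves out, so it is no measure of the precision. The mean difference of the markers was 0.18 in experiment 1, −0.05 in experiment 2 and −0.04 in experiment 3, with 14, 7 and 7 of the 19 markers higher with DAPT. *Pecam1*, which encodes the adhesion molecule CD31, had log2 signals of 7.07, 7.84 and 8.03 in controls 1 to 3 and of 7.46, 7.74 and 8.06 in the DAPT samples. The groups overlapped, experiment 1 alone showed a clear increase, and the mean difference was 0.11 (standard error 0.11). *Cdh5*, the VE-cadherin gene, had 8.68, 9.89 and 10.19 in controls and 9.29, 9.69 and 9.99 with DAPT, a difference of 0.07 (standard error 0.18, 95% interval from −0.36 to 0.50). It was higher in experiment 1 by 0.62 and lower in the other 2, by 0.20 each.

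At an unadjusted threshold 7 of the 34 members differed, and none passed the adjusted threshold. Of the 34 members, 5 were higher with DAPT and 2 were lower where an unadjusted p under 0.05 was the threshold, in a limma fit of all 20259 genes blocked by experiment. That is 14.7% and 5.88% of the members, where 5.27% of all genes were higher and 2.59% lower at the same threshold. The members were chosen with earlier results of these data known, and the study lists *Apln* and *Flt1* as changed on these arrays. These shares are therefore a description, and an excess over all genes was not tested. After Benjamini-Hochberg adjustment over all genes 0% of genes passed, members included, and the lowest adjusted p of a member was 0.0954. In all 3 experiments 9 of the 34 members were higher and 5 of the 34 were lower, against 19.1% and 10.5% of all genes. In 3 members each DAPT array lay above each control array, against 4.94% of all genes, and in 0 members below, against 2.35%. The 5 higher genes were *Aplnr*, *Apln*, *Angpt2*, *Robo4* and *Kdr*, and the 2 lower genes were *Esm1* and *Flt1*. The median difference of the 34 members was 0.04, and 25 of them differed by less than 0.2.

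**Figure D2:**
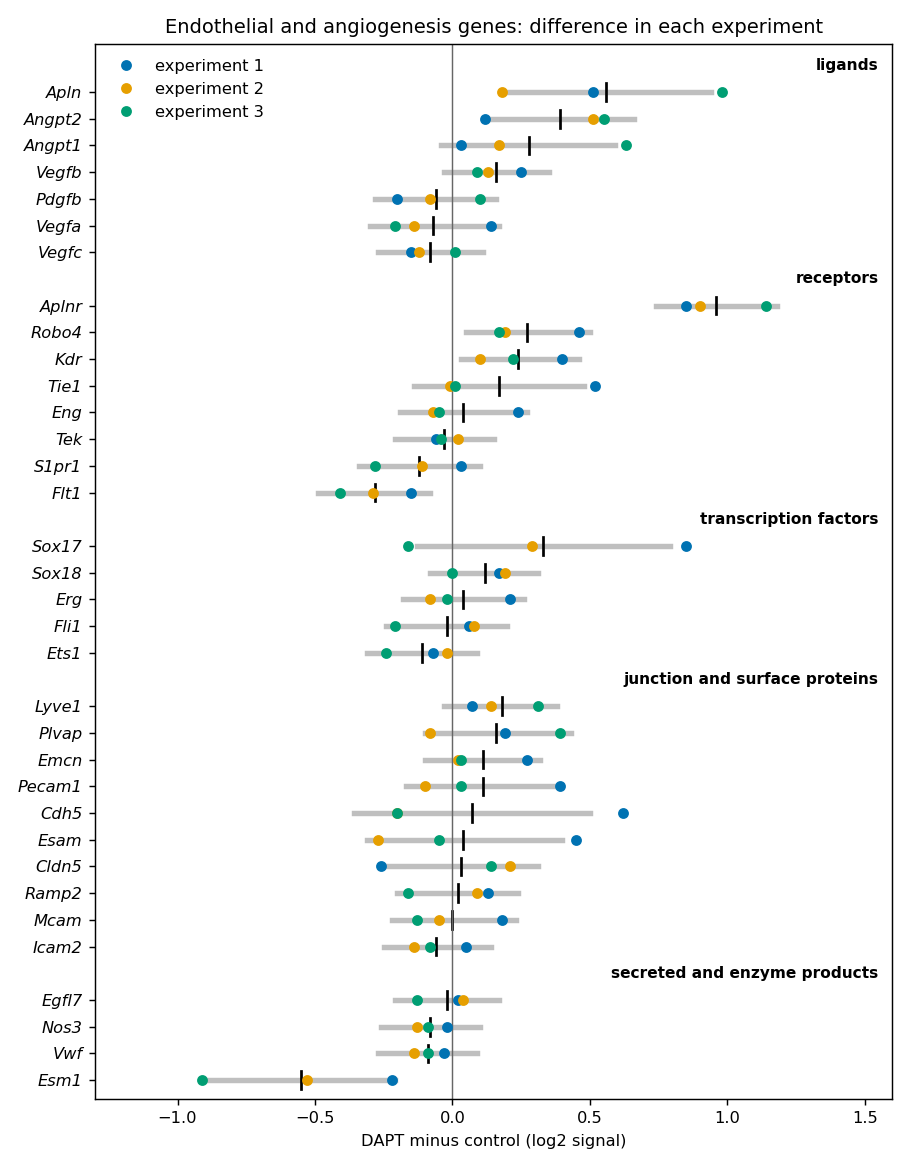
DAPT minus control on the log2 scale for the 34 members, grouped by role. Points are the 3 experiments, black ticks their mean and grey bars its 95% interval from limma. *Aplnr* stands alone at 0.96, *Esm1* lies lowest at −0.55, and most other members scatter around 0, experiment 1 often to the right.

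The apelin receptor gene *Aplnr* showed the largest difference of the members. It encodes a G protein-coupled receptor of venous and sprouting endothelium. Its log2 signal was 8.10, 8.81 and 8.77 in controls 1 to 3 and 8.94, 9.71 and 9.91 in the DAPT samples. All 3 DAPT arrays lay above all 3 controls, and the increase within experiments 1, 2 and 3 was 0.85, 0.90 and 1.14. The mean difference was 0.96 (standard error 0.09), a ratio of 1.95, with an adjusted p of 0.0954 in limma. Among all genes *Aplnr* was number 13 by the size of the increase, with 0.0592% of genes above it, and number 9 by p. Relative to the mean of the pan-endothelial markers in the same experiment the increase was 0.67, 0.95 and 1.18, so it was seen in experiment 1, where most of those markers were higher, and in experiments 2 and 3, where most were lower. Without the block by experiment the unadjusted p was 0.0127, and leaving out any 1 experiment gave differences between 0.87 and 1.02, each past the unadjusted threshold. The one-way comparison that the methods name, run gene by gene with no pooled variance, gave an unadjusted p of 0.0621. With array weights, over genes above the lower quartile or the median of the signal, and relative to the pan-endothelial mean, *Aplnr* passed the adjusted threshold.

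*Apln*, which encodes the ligand apelin, was also higher. The study lists it among genes chosen as higher on these arrays, so its direction is not independent evidence. Its log2 signal was 8.18, 8.31 and 8.16 in the controls, a range of 0.15, and 8.69, 8.49 and 9.14 in the DAPT samples. Again no DAPT array reached down to the controls, though the increase varied from 0.18 in experiment 2 to 0.98 in experiment 3. The mean difference was 0.56 (standard error 0.15, adjusted p = 0.423 in limma). The fit without the block gave an unadjusted p of 0.0122, and the plain paired comparison, which pools no variances, gave 0.139. Apelin and its receptor were thus both higher in each experiment, and in both genes experiment 3 showed the largest increase.

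Angiopoietins act on the receptor TIE2, encoded by *Tek*. *Angpt2*, the form that loosens vessels and marks tip cells, had log2 signals of 6.86, 7.07 and 7.18 in controls and 6.98, 7.58 and 7.74 with DAPT. The difference was 0.39 (standard error 0.11, adjusted p = 0.419 in limma), made up of 0.12 in experiment 1 and of 0.51 and 0.55 in experiments 2 and 3, and DAPT sample 1 lay within the controls. A second, dimmer cluster of *Angpt2* had a difference of 0.03 (standard error 0.27), and the mean of both clusters 0.21, with an unadjusted p of 0.197 in limma. Signals of that dimmer cluster were 4.59 to 6.00, below the array medians, so it says little about the brighter one. The call was also lost in limma without the block, at an unadjusted p of 0.0915, and without experiment 2 or 3, at unadjusted p of 0.0617 and 0.0565. *Angpt1*, the form that stabilizes vessels, had 10.67, 9.98 and 9.67 in controls and 10.70, 10.15 and 10.30 with DAPT. Most of its difference of 0.28 (standard error 0.13), which did not pass, came from experiment 3, where it was 0.63. A second, dimmer cluster, with signals from 5.82 to 6.68, had 0.06. Without experiment 3 the *Angpt1* difference was 0.10. It passed in limma without experiment 1, at 0.40 and an unadjusted p of 0.0353, after a second quantile normalization, at 0.35 and 0.0438, and without both the block and control 1, at 0.56 and 0.0261. *Tek* was level, at −0.03 (standard error 0.07), with signals of 6.27, 6.83 and 7.06 in controls and 6.20, 6.86 and 7.02 with DAPT. *Tie1*, which encodes the partner receptor, differed by 0.17 (standard error 0.13), nearly all of it from an increase of 0.52 in experiment 1.

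The VEGF receptor genes *Kdr* and *Flt1* went opposite ways. *Kdr* encodes VEGFR2, the main signaling receptor, and *Flt1* encodes VEGFR1, which binds VEGF with little signaling. The 250 bases before their annotated starts are shown because Notch target genes are bound by the factor RBPJ, whose core site is GTGGGAA, and the promoters of *Apln* and *Esm1*, sprouting genes that also went opposite ways, are shown with them. The letters come from RefSeq (GRCm38.p6) and run 5′ to 3′ on the strand of the gene. Capitals mark a match to the core site on either strand.

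*Kdr* (chr5:75978456-75978705, minus strand): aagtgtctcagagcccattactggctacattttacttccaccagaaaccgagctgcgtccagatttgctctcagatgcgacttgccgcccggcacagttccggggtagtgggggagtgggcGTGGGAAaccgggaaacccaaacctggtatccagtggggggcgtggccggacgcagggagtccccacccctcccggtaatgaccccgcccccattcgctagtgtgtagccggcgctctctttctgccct
*Flt1* (chr5:147726012-147726261, minus strand): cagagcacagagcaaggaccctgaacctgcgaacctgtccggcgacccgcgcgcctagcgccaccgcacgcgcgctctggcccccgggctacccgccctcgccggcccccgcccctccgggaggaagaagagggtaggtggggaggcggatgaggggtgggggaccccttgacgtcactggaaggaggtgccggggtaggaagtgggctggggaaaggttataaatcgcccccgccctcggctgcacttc
*Apln* (chrX:48034854-48035103, minus strand): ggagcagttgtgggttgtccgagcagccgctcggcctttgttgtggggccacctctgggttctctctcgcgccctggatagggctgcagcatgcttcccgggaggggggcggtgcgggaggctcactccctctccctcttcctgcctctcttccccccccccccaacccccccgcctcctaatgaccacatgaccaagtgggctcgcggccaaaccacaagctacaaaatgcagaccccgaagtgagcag
*Esm1* (chr13:113209409-113209658, plus strand): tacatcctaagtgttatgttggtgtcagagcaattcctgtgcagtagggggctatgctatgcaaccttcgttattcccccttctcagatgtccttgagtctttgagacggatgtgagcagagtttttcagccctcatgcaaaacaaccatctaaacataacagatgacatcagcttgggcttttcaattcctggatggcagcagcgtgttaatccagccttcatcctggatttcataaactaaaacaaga

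Only the *Kdr* window of these 4 holds the RBPJ core, beginning 129 bases before the start. Of 22 promoters listed for 17 of the members, 2 held it, those of *Kdr* and *Tie1*, or 9.09%, where 5.42% of all 32851 promoters of the same length did. The E-box CACGTG that Hes and Hey proteins bind and the ETS site CCGGAAG were in 0 of the 22, against 6.02% and 6.91% of all promoters. The hypoxia element ACGTG, which is contained in that E-box, was in 1, that of *Vegfa*, against 16.6%. These matches describe the windows only.

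*Kdr* had log2 signals of 7.15, 8.39 and 8.89 in controls and 7.55, 8.49 and 9.11 with DAPT. The arrays of the 2 groups overlapped widely, and the controls alone spanned 1.75, but each DAPT sample lay above the control of its own experiment, by 0.40, 0.10 and 0.22. The mean difference was 0.24 (standard error 0.09, 95% interval from 0.03 to 0.46, adjusted p = 0.576 in limma). In limma without the block *Kdr* had an unadjusted p of 0.657, and without experiment 1 or 3 it did not pass either, at unadjusted p of 0.120 and 0.0843. With array weights the unadjusted p was 0.0596. *Flt1* had 6.99, 7.29 and 7.49 in controls and 6.84, 7.01 and 7.08 with DAPT. It was lower by 0.15, 0.29 and 0.41 within experiments, with a mean of −0.28 (standard error 0.08, adjusted p = 0.461 in limma). Relative to the other pan-endothelial markers *Flt1* differed by −0.35, −0.25 and −0.40, and *Kdr* by 0.23, 0.16 and 0.27. Fitted in limma on the scale relative to the pan-endothelial mean, *Flt1* kept its call, at an unadjusted p of 0.0175, and *Kdr* lost it, at an unadjusted p of 0.0825. The study lists *Flt1* among genes that it selected as lower on these arrays, so its direction is not independent evidence. The *Flt1* call was lost in limma without the block, at an unadjusted p of 0.0885, and without experiment 2 or 3, at unadjusted p of 0.0711 and 0.0882.

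The VEGF ligand genes among the members, *Vegfa*, *Vegfb* and *Vegfc*, did not pass. *Vegfa*, the main ligand of VEGFR2, had log2 signals of 9.06, 9.29 and 9.15 in controls and of 9.20, 9.16 and 8.94 with DAPT, so that the difference was −0.07 (standard error 0.09, 95% interval from −0.30 to 0.17). It was higher in experiment 1 and lower in the other 2. *Vegfb*, a ligand of VEGFR1, had 10.18, 10.26 and 10.33 in controls and 10.43, 10.39 and 10.42 with DAPT. Its groups did not overlap, yet the difference was only 0.16 (standard error 0.08, unadjusted p = 0.0902). It passed at an unadjusted p of 0.0231 in limma when the arrays were quantile normalized again, and at 0.0268 in the plain one-way comparison. *Vegfc*, a growth factor of lymphatic vessels, differed by −0.08 (standard error 0.08), and *Pdgfb*, by which endothelium recruits pericytes, by −0.06 (standard error 0.09).

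**Figure D3:**
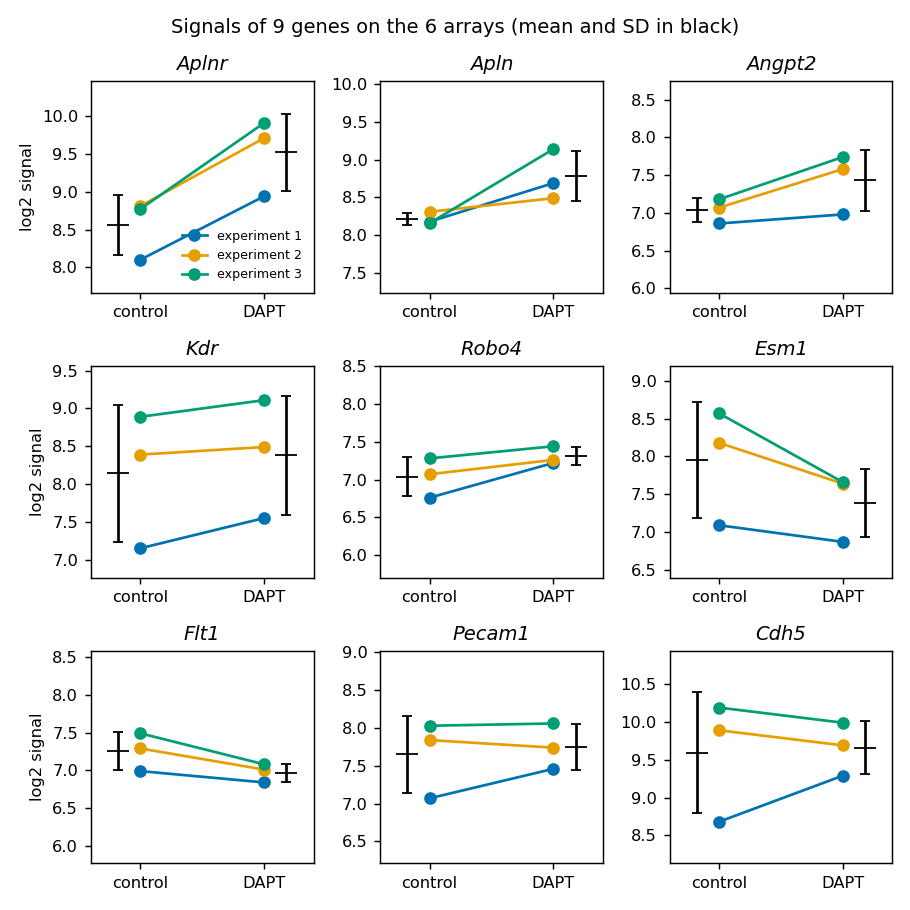
Log2 signals of 9 members on the 6 arrays, with a line for each experiment and the mean and SD (n = 3) of each group in black. Vertical axes differ in level but have the same span. *Aplnr* rises along 3 near-parallel lines from controls at 8.10 to 8.81, *Kdr* rises slightly at 3 far-apart levels, and *Cdh5* converges from controls at 8.68 to 10.19.

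*Esm1*, the gene for endocan, a proteoglycan secreted by tip cells, was the member with the largest decrease. Its log2 signal was 7.09, 8.18 and 8.57 in controls and 6.87, 7.64 and 7.66 with DAPT. The decrease was 0.22 in experiment 1, 0.53 in experiment 2 and 0.91 in experiment 3, and was largest where the control was highest. The mean difference was −0.55 (standard error 0.14, adjusted p = 0.375 in limma), a ratio of 0.68. DAPT samples overlapped the controls because control 1 was low, and without the block the unadjusted p was 0.201. With the block the call held when any 1 experiment was left out.

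The sprouting genes thus did not move as a group. Of the 4 measured, *Apln* and *Angpt2* were higher, *Esm1* was lower and *Pdgfb* did not pass, and their median difference was 0.17. Their mean difference exceeded that of the pan-endothelial markers by −0.13, 0.07 and 0.22 in experiments 1, 2 and 3, a sign that was not shared by the 3 experiments. *Esm1* and *Apln* are known tip cell genes, and relative to the pan-endothelial markers *Apln* differed by 0.33, 0.23 and 1.02 and *Esm1* by −0.40, −0.49 and −0.87. *Angpt2* differed by −0.06, 0.56 and 0.59 on this relative scale. From control 1 to control 3 *Esm1* and *Angpt2* rose like the pan-endothelial mean, *Esm1* with 7.09, 8.18 and 8.57. *Apln*, with 8.18, 8.31 and 8.16, and *Pdgfb*, with 9.70, 9.49 and 9.49, did not follow that order. Which cells made these transcripts was not measured, so the values are not a reading of tip cells alone.

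Of the remaining receptors, *Robo4*, an endothelial receptor that stabilizes vessels, had log2 signals of 6.76, 7.07 and 7.28 in controls and 7.22, 7.26 and 7.44 with DAPT. Each DAPT sample was above its own control, with a difference of 0.27 (standard error 0.09, adjusted p = 0.524 in limma). Its call was lost in limma without the block, at an unadjusted p of 0.104, and without experiment 1 or 2, at unadjusted p of 0.0837 and 0.0546. It was also lost relative to the pan-endothelial mean, at an unadjusted p of 0.0511. *Eng*, which encodes the BMP coreceptor endoglin, differed by 0.04 (standard error 0.09), and *S1pr1*, a receptor for the blood lipid sphingosine-1-phosphate, by −0.12 (standard error 0.09).

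None of the 5 transcription factor genes passed the unadjusted threshold, which 5.27% of all genes passed as higher and 2.59% as lower. *Sox17*, a factor of arterial endothelium, had the widest spread of all members. Its differences were 0.85, 0.29 and −0.16 in experiments 1, 2 and 3, with a mean of 0.33 (standard error 0.19). The 3 dimmer clusters of the gene had between 0.10 and 0.16, with signals from 4.07 to 7.15, in part below the array medians. *Sox18*, its relative in lymphatic and blood vessels, had log2 signals of 6.33, 6.50 and 6.68 in controls and of 6.49, 6.69 and 6.68 with DAPT, a difference of 0.12 (standard error 0.08). The ETS factor genes *Erg*, *Fli1* and *Ets1* differed by 0.04, −0.02 and −0.11. In all 3 of them control 1 was the lowest control and control 3 the highest, for *Fli1* at 7.32 and 8.47, and the DAPT samples had the same order.

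The 10 junction and surface genes also gave 0 calls, with differences between −0.06 and 0.18. Over all genes 5.27% were higher and 2.59% lower by the same unadjusted threshold. *Emcn*, which encodes the capillary and venous sialomucin endomucin, differed by 0.11, the tight junction gene *Cldn5* by 0.03, the adhesion genes *Esam* and *Icam2* by 0.04 and −0.06, and *Ramp2*, a partner of the adrenomedullin receptor, by 0.02. *Plvap*, a gene of fenestrated vessels, differed by 0.16 (standard error 0.11), with −0.08 in experiment 2. *Mcam*, which endothelium shares with pericytes and other cells, had 10.42, 10.86 and 10.65 in controls and 10.60, 10.81 and 10.52 with DAPT, and its mean difference was 0.00 (standard error 0.09). *Lyve1*, a hyaluronan receptor of lymphatic vessels and of some macrophages, had 5.55, 5.69 and 5.49 in controls and 5.63, 5.83 and 5.80 with DAPT, below the array medians on all 6 arrays. Its difference of 0.18 (standard error 0.08) did not pass. Among the other secreted and enzyme products, *Nos3*, the endothelial nitric oxide synthase gene, *Vwf*, the von Willebrand factor gene, and *Egfl7*, an endothelial matrix gene, differed by −0.08, −0.09 and −0.02.

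Other genes of the same pathways gave as many higher as lower calls. Of 40 listed 37 were measured, of which 4 passed the unadjusted threshold as higher and 4 as lower, and 0 passed after adjustment, where 5.27% of all genes were higher and 2.59% lower by the unadjusted threshold. *Gja5*, which encodes connexin 40 of arterial endothelium, had 7.04, 7.50 and 7.85 in controls and 6.85, 6.91 and 7.04 with DAPT, a difference of −0.53 (standard error 0.13, adjusted p = 0.363 in limma). Its groups did not overlap, though the lowest control and the highest DAPT value both round to 7.04. *Cxcl12*, a chemokine gene, and *Cxcr4*, its receptor gene, which tip cells and arteries express, were both lower, with differences of −0.41 (standard error 0.09) and −0.25 (standard error 0.09). *Sema3g*, a semaphorin gene of arteries, had −0.25 (standard error 0.08). *Adgrl4*, an adhesion receptor gene of endothelium, was higher by 0.45 (standard error 0.10), *Vegfd*, a ligand gene of lymphatic growth, by 0.26 (standard error 0.08), *Cd93*, an endothelial lectin gene, by 0.25 (standard error 0.10), and the transporter gene *Slco1a4* by 0.18 (standard error 0.07). The signals of *Slco1a4* lay between 5.22 and 5.71, below the array medians, and its call held in 3 of 19 alternative fits. *Dll4*, the tip cell ligand gene itself, had 7.98, 9.17 and 9.51 in controls and 8.35, 8.68 and 8.94 with DAPT. It was higher in experiment 1 and lower in the others, and its difference of −0.23 (standard error 0.19) did not pass. Without the block by experiment 0 of these genes were higher and 1 was lower, and without experiment 1, in the blocked fit, 1 was higher and 10 were lower.

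**Figure D4:**
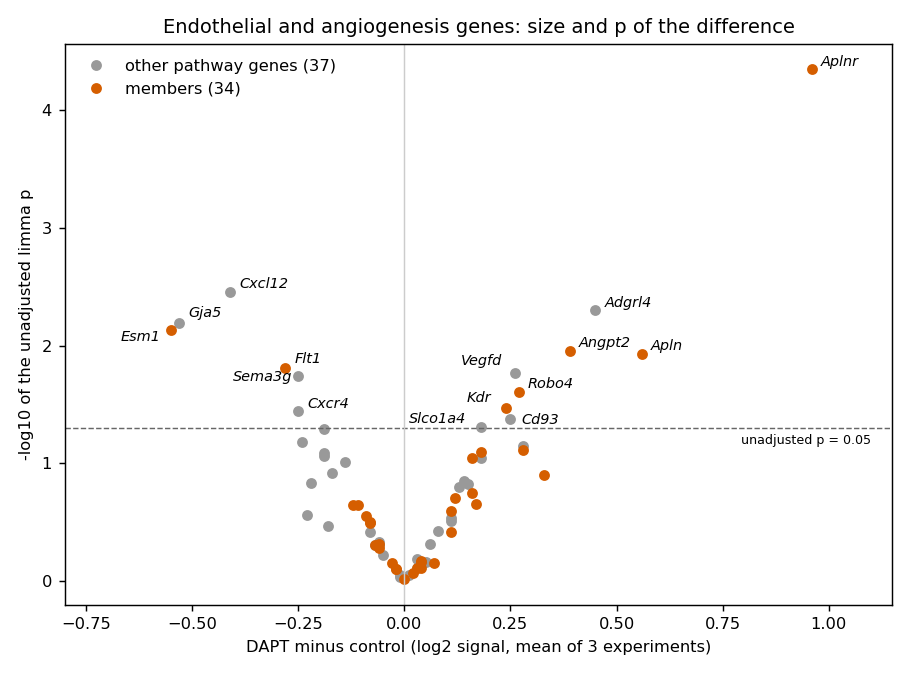
DAPT minus control (horizontal axis, log2 signal) against −log10 of the unadjusted p from limma (vertical axis) for the 34 members in orange and 37 other pathway genes in grey. The dashed line is the unadjusted threshold of 0.05, and genes past it are named. *Aplnr* lies far from the rest, and *Cxcl12*, *Gja5* and *Esm1* lie farthest to the left and highest among the genes with a negative difference.

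Cells and states that could accompany these genes were read from marker lists, whose counts stand beside shares over all genes of 5.27% higher and 2.59% lower by the same unadjusted threshold. Of 14 genes of pericytes and smooth muscle, the cells that wrap vessels, 5 were lower and 2 higher by the unadjusted threshold. Their mean log2 signal was 7.73 to 8.07 in controls and 7.71 to 7.82 with DAPT. The lower genes were *Abcc9* at −0.90 and *Kcnj8* at −0.63, subunits of the pericyte potassium channel, *Rgs5* at −0.57, *Pdgfrb* at −0.53 and *Notch3* at −0.28. *Notch3* is not particular to pericytes, since the paper cites it as expressed in supporting cells of the cochlear epithelium. Its signal fell over controls 1, 2 and 3, with 9.92, 9.45 and 9.34, where *Pdgfrb* had 9.27, 10.70 and 10.64. The higher genes were *Anpep* at 0.44, without overlap between groups, and *Des* at 0.22. The study counts *Pdgfrb* and *Rgs5* among genes that it selected as lower on these arrays, so their direction is not independent evidence. Of 11 macrophage genes 1, *Tyrobp* at 0.30, was higher, and their mean difference was 0.20, −0.11 and 0.36 in experiments 1 to 3. Of 5 measured erythroid genes 1, *Hbb-y* at −0.31, was lower. Of 11 genes of the hypoxia response, which is known to induce *Vegfa*, *Apln* and *Angpt2*, 2 were higher, *Adm* by 0.29 and *Car9* by 0.23, 0 were lower, and their mean log2 signal was 8.07 to 8.09 in controls and 8.15 to 8.18 with DAPT. Of 8 epithelial genes 1, *Krt8* at −0.28, was lower. The part of these lists in the differences of the members was not tested. As a check on the block of Notch signaling, 9 genes were read. Of these 7 were lower and 2 higher, each without overlap between groups, with *Hey1* at −1.29 and *Atoh1* at 1.18. The study lists all 9 among genes chosen as changed on these arrays, so their direction is not independent evidence of the block.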

How the data were processed

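The authors hybridized RNA of 6 pools to Mouse Exon 1.0 ST arrays and, per their methods and labels, extracted the scans in Partek with the extended meta-probe set and normalized them with RMA. The deposited values are therefore quantile-normalized log2 signals, 1 per transcript cluster. The labels name mm9, and no array coordinates are given here. Quantile normalization sets the arrays to a like distribution, so a change shared by most genes would not be seen.

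Of 115830 clusters, 25539 had 1 gene name in the platform annotation, and 24941 of these were renamed to the symbol of their gene identifier in RefSeq (GRCm38.p6). For genes with several clusters, the brightest cluster on average was used, which left 20259 genes. The treatments were compared in limma 3.58.1 (R 4.3.3; lmFit, eBayes, experiment as a block, two-sided) over all genes with Benjamini-Hochberg adjustment at 0.05. An unadjusted p under 0.05 served as a second, descriptive threshold. The main fit has the block because the labels give 1 control and 1 DAPT sample per experiment, while the methods name a one-way model. Within experiments 1, 2 and 3, the deviations of control and DAPT arrays from their group means had correlations across genes of 0.556, 0.434 and 0.513, and between experiments 0.00925 at most, so the numbers pair the samples. The labels call the 3 samples of a group biological replicates.

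Values per array are given for members past the unadjusted threshold with 1 direction in all experiments, for 7 members that the rule names (*Pecam1*, *Cdh5*, *Kdr*, *Flt1*, *Apln*, *Esm1* and *Vegfa*) and for the 3 brightest and 3 dimmest. Other genes are summarized, and *Gja5* and *Dll4* are shown per array after their values were seen. The members and lists were chosen with earlier results of these data known, and lists are described by counts and medians, with no test. Promoters were searched in the 250 bases before RefSeq starts. The script was tested on simulated data. Python 3.11.15 was used with numpy 2.4.6 and pandas 2.3.3, and with matplotlib 3.10.9 for figures. Alternatives were other normalizations, filters, cluster choices, priors and array weights, plain comparisons, the fit without the block, and leaving out experiments or arrays.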

Additional observations from a re-analysis of the deposited data

Results flagged for a closer look

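A second, dimmer cluster of *Vwf*, which the comparisons do not use, differed by 0.50 on the log2 scale (standard error 0.17, adjusted p = 0.651 in limma over all clusters with 1 gene). Its signals were 4.12, 4.30 and 3.47 in controls and 4.38, 4.55 and 4.45 with DAPT, below the array medians, and it was drawn to attention because it was higher with DAPT in all 3 experiments at an unadjusted p of 0.0338, while the brighter cluster had −0.09. Most of the difference came from experiment 3, at 0.98.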

How the results depend on the processing

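The 5 higher and 2 lower members became 2 and 0 without the replicate block, 2 and 0 in the plain one-way and 1 and 0 in the plain paired comparison, 3 and 0 over genes above the median signal, a filter that removed *Angpt2*, *Robo4*, *Esm1* and *Flt1* from the test, and 3 and 2 relative to the pan-endothelial mean, a setting chosen after seeing the data. After adjustment 1 member, *Aplnr*, passed with array weights, above the lower quartile or the median of the signal, and relative to the pan-endothelial mean. Of all genes 30 passed with array weights, 17 and 26 above the lower quartile and the median of the signal, 6 with the mean of all clusters, 3 after a second quantile normalization and 6 with a trend and robust prior. At the unadjusted threshold 1067 genes were higher and 525 lower; this was 1629 and 914 with array weights, 471 and 333 above the median signal, 394 and 199 without the replicate block, and 490 and 215 with a plain one-way model. Among other pathway genes, 2 were higher when clusters were tested on their own, after median centring and in the plain paired comparison, 1 above the median signal, and 0 without the replicate block and in the plain one-way comparison, while 7 were lower with array weights and 1 without the replicate block and in the plain one-way comparison. When 1 experiment of the blocked fit or 1 array of the fit without the replicate block was left out, 2 to 4 members were higher and 0 to 2 lower, 265 to 1359 of all genes were higher and 136 to 946 lower, 0 to 2 of the other pathway genes were higher and 0 to 10 lower, and the median difference was −0.14 to 0.22 for all members and −0.20 to 0.22 for pan-endothelial markers. In the blocked fit, leaving out experiment 2 gave 3 members and 707 genes higher, leaving out experiment 2 or 3 gave 1 member lower, and leaving out experiment 1 gave 946 genes lower. *Kdr* ranged from −0.26 to 0.66 and *Cd93* from −0.22 to 0.61 over these fits, and both were reversed only without the replicate block, at −0.26 and −0.22 without control replicate 1 and at −0.12 and −0.02 without DAPT replicate 3. The causes were not tested. The number of arrays limits the precision, and signals near or below the array medians are the least certain.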
